A study of Mus musculus with 60 samples.

Results

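The 72 genes described here are the heat shock proteins and J-domain co-chaperones of the mouse hippocampus, 72 of the 24508 gene symbols in the expression table. They were chosen by symbol alone, under a rule set with earlier results of these data known. It took Dnaja, Dnajb or Dnajc followed by digits, Hspa, Hspb, Hspd, Hspe or Hsph followed by digits or letters, and every symbol beginning with Hsp90. This rule also took in 3 genes that belong to none of the chaperone families, Hspbp1, Hspbap1 and Hspb11, which are kept apart below as genes caught by name. The tissue was whole hippocampus, taken at 30 weeks of age from wild-type (WT) and R6/1 mice, both on a mixed CBA x C57BL/6 background. R6/1 mice carry, beside their own huntingtin alleles, exon 1 of human huntingtin with an expanded CAG repeat as a transgene, and serve as a Huntington's disease model. The transgene is driven by the human huntingtin promoter in a single transgenic line, and no treatment is recorded for either genotype. There were 9 RNA-seq libraries of each genotype, which the submitters call independent biological replicates, and lamin B1 ChIP-seq from pools of 5 mice per replicate. Expression is given in RPKM, reads per kilobase of transcript scaled for depth.

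Chaperones of the HSP70 family bind exposed hydrophobic stretches of unfolded proteins and release them in a cycle driven by ATP. J-domain proteins (the DNAJA, DNAJB and DNAJC classes) hand substrates to HSP70 and start its ATP hydrolysis, HSP110 proteins exchange the nucleotide, and HSP90 takes over clients such as kinases and steroid receptors for late folding steps. Each compartment has its own set, with BiP (Hspa5) in the endoplasmic reticulum (ER) and mortalin (Hspa9) with the HSP60 chaperonin in mitochondria. Several of these proteins hold back the aggregation of expanded polyglutamine, and a subset is induced through the heat shock factor HSF1.

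The libraries held between 12299434 and 16736544 reads on genes. Markers of hippocampal neurons, astrocytes, oligodendrocytes and microglia were all detected, and no marker gene was at 0 throughout. The summed level of 5 general neuron markers was between 1707 and 2051 RPKM in WT and between 1306 and 1474 RPKM in R6/1, and all 5 were lower in R6/1. All 6 dentate granule markers were lower too, with a summed level of 71.3 to 111 RPKM in WT and 42.3 to 53.6 RPKM in R6/1. The 6 astrocyte markers were all lower as well, at 491 to 671 RPKM in WT and 363 to 539 RPKM in R6/1. In bulk tissue, fewer cells of a type and less RNA per cell cannot be told apart, which holds for every difference below. WT replicate 1 stood apart for the chaperones: it had the highest of the 9 WT values for 30 of the 64 tested members, against 19.8% of all tested genes. For several of these members the fold change without it is given as well. The part of the marker differences in the chaperone results was not tested, except where a value is given.

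Of the 72 members, 64 reached a mean of 0.5 RPKM over all libraries and were tested with limma on log2(RPKM + 0.5), with Benjamini-Hochberg adjustment over 14446 genes and a threshold of 0.05. Among these 64, 22 were higher in R6/1, 9 were lower and 33 did not pass. Of all tested genes 24.8% were called higher and 23.5% lower, so the members' share of 34.4% higher lay above the background and their share of 14.1% lower lay below it. The median log2 fold change was 0.07 over the members and 0.00 over all tested genes. In 5 members every R6/1 library lay above every WT library, and in 3 every R6/1 library lay below every WT library, against 5.5% and 6.38% of all tested genes. Without WT replicate 1, 25 members were higher and 9 lower, and over all genes 3671 higher and 3504 lower. The additions among the members were Dnaja3, Hspa4 and Hspa5. With RPKM rescaled by library totals in place of the authors' scaling, the counts were 32 higher and 7 lower, and over all genes 5110 higher and 2526 lower.

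**Figure D1:**
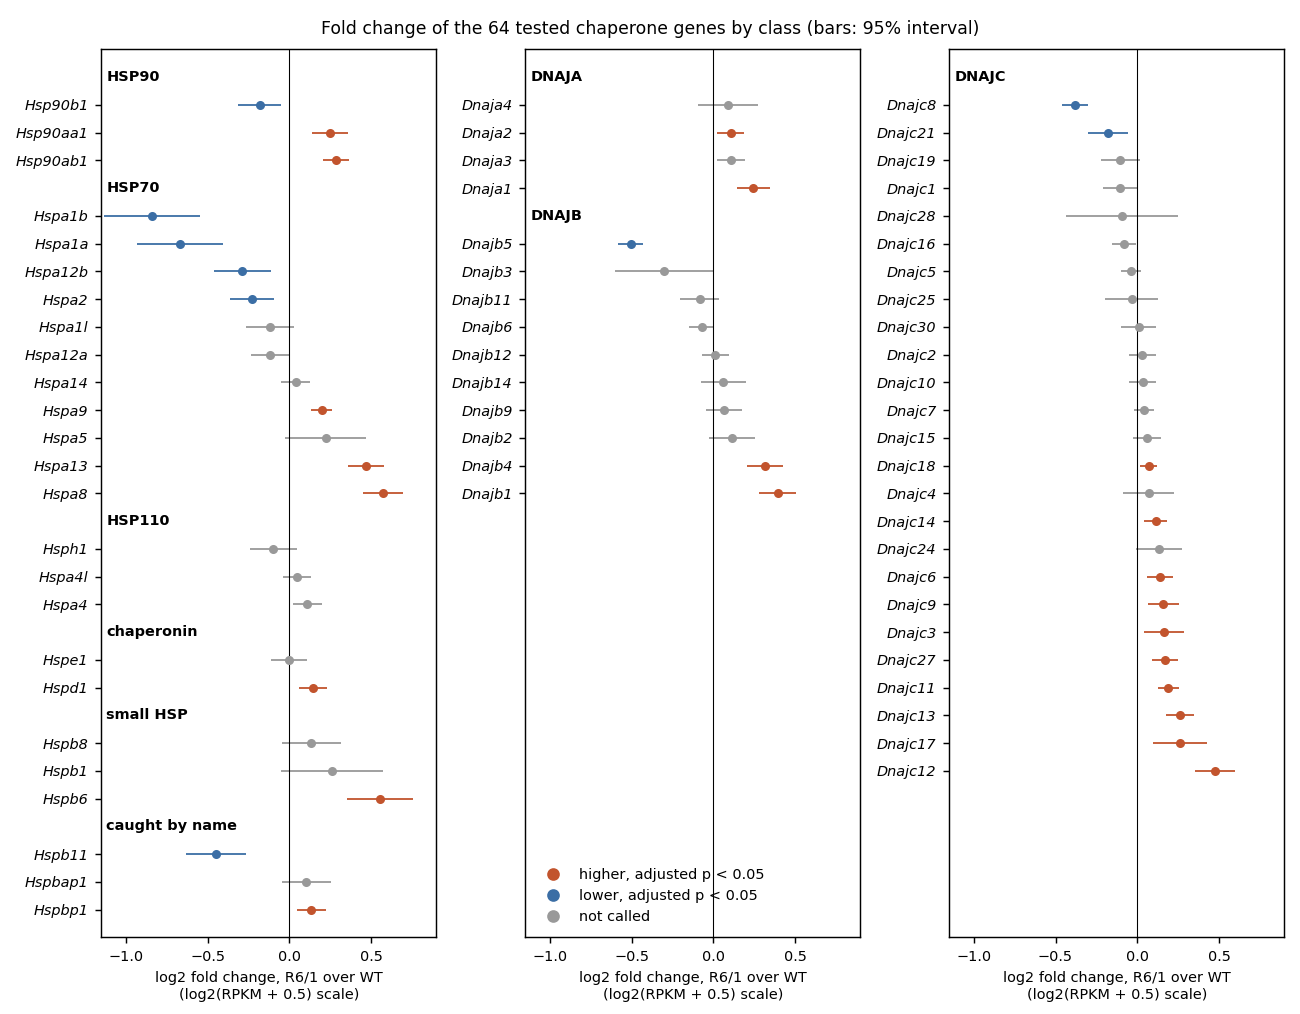
Log2 fold change (R6/1 over WT, on the log2(RPKM + 0.5) scale) of the 64 tested members, 1 row per gene grouped by chaperone class, with 95% intervals from limma as bars. Only Hspa8, Hspb6, Dnajb5, Hspa1a and Hspa1b lie farther than 0.5 from 0; red dots are higher and blue dots lower in R6/1 at an adjusted p under 0.05, and grey dots did not pass.

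The counts by class and compartment stand against 24.8% higher and 23.5% lower among all tested genes. By class, HSP90 had 2 higher and 1 lower of 3 members, and the HSP70 class had 3 higher and 4 lower of 11. None of the 3 HSP110 genes passed. Of the 2 chaperonin genes 1 was higher, as was 1 of the 3 small heat shock proteins that could be tested. The DNAJA class had 2 higher of 4 and the DNAJB class 2 higher and 1 lower of 10 tested. DNAJC, the most varied class, had 10 higher and 2 lower of 25 tested. By compartment, 10 of the 30 tested cytosolic members were higher (33.3%) and 5 lower (16.7%). Of 14 ER members, 4 were higher (28.6%) and 1 lower (7.14%). The 8 mitochondrial members included 3 higher (37.5%) and none lower.

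In WT hippocampus Hspa8, the constitutive cytosolic HSP70 (HSC70), had the highest mean of all members at 887 ± 118 RPKM (SD, n = 9), followed by Hsp90ab1 at 694 ± 47.1 and Hsp90aa1 at 389 ± 45.2 RPKM. Next came Hsp90b1 at 121 ± 17.0, Hspa5 at 99.3 ± 29.9, Hsph1 at 88.0 ± 13.4 and Dnajc5 at 84.6 ± 3.54 RPKM, and these neighbours overlapped in their library ranges. The heat-inducible Hspa1a and Hspa1b lay far below, at 5.82 ± 1.83 and 6.19 ± 2.35 RPKM. Hspa8 thus made up between 73.1% and 76.6% of the summed RPKM of the 11 HSP70 genes in the WT libraries and between 80.3% and 82.2% in the R6/1 libraries. Hspa1a and Hspa1b together made up 0.774% to 1.36% of that sum in WT and 0.309% to 0.53% in R6/1. Neither share overlapped between genotypes.

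**Figure D2:**
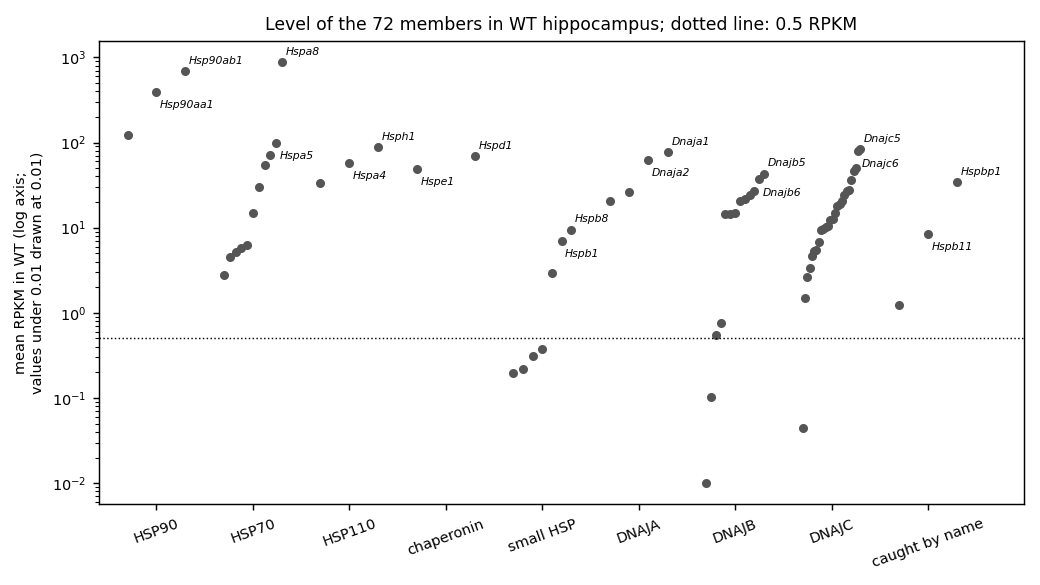
Mean RPKM in the 9 WT libraries (log axis) of the 72 members, 1 dot per gene, sorted by level within each chaperone class. Hspa8, Hsp90ab1 and Hsp90aa1 are the 3 highest, and the dotted line at 0.5 RPKM marks the minimum mean for the test.

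Both abundant cytosolic HSP90 genes and HSC70 were higher in R6/1. Hspa8 (chr9:40609067-40613283, plus strand, build mm9) had a lowest, median and highest value of 813, 847 and 1182 RPKM in WT and of 1223, 1287 and 1455 RPKM in R6/1. All 9 R6/1 libraries lay above all WT libraries, and WT replicate 1 alone came near them, with the other 8 WT libraries at 938 RPKM or less. The log2 fold change was 0.57 (SE 0.061, limma adjusted p 2.63e-07), or 48.0% on the means, and 0.63 without WT replicate 1. The constitutive HSP90 beta gene Hsp90ab1 (chr17:45704724-45710220, minus strand) ranged from 641 to 790 RPKM in WT (median 676) and from 803 to 894 RPKM in R6/1 (median 848). Its genotypes did not overlap either, and the gene rose by 0.29 on the log2 scale (SE 0.040, limma adjusted p 7.61e-06). For Hsp90aa1, the inducible HSP90 alpha gene (chr12:111928815-111940938, minus strand), the WT values ran from 351 through a median of 376 to 503 RPKM and the R6/1 values from 428 through 455 to 499.99 RPKM. Only WT replicate 1 reached into the R6/1 range, as the next WT library had 398 RPKM. The log2 fold change was 0.25 (SE 0.055, limma adjusted p 0.000926), and 0.30 without that library. Of the 31-base words in the transcripts of Hspa8 and Hsp90aa1, 80.2% and 78.3% occur elsewhere in the genome, and 23.5% of those of Hsp90ab1, and how reads with several matches were counted is not given.

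**Figure D3:**
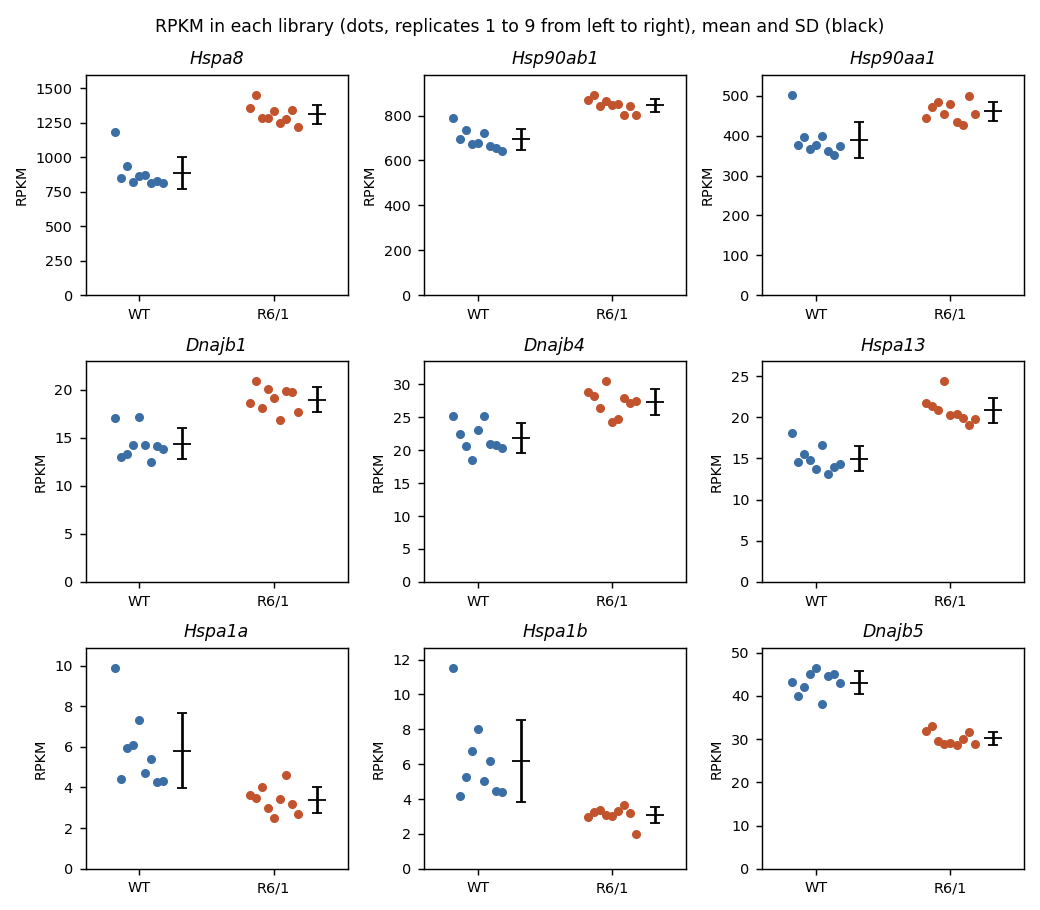
RPKM of 9 members in each library (dots, replicates 1 to 9 from left to right; WT blue, R6/1 red) with mean and SD in black, every axis starting at 0. Hspa8, Hsp90ab1, Hspa13, Hspa1b and Dnajb5 show no overlap between genotypes, and WT replicate 1 is the leftmost blue dot, highest of the WT libraries for Hspa8, Hsp90aa1, Hspa1a and Hspa1b.

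Summed over the class, the 3 HSP90 genes came to between 1110.2 and 1451 RPKM in WT (median 1167) and between 1328 and 1476 RPKM in R6/1 (median 1429), a ratio of means of 1.17. The 11 HSP70 genes came to between 1087 and 1574 RPKM in WT (median 1111) and between 1523 and 1769.9 RPKM in R6/1 (median 1603), a ratio of 1.37. Both sums overlapped through WT replicate 1 alone, and the ratios without it were 1.20 and 1.43. The sums of the 3 HSP110 genes and of the 13 DNAJB genes were nearly level between genotypes, with ratios of 0.997 and 0.992.

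Hspa1a and Hspa1b, the paired heat-inducible HSP70 genes, went the other way. In Hspa1a (chr17:35106144-35109069, minus strand) the WT libraries had a lowest, median and highest value of 4.25, 5.42 and 9.87 RPKM and the R6/1 libraries of 2.51, 3.44 and 4.598 RPKM. All 9 R6/1 libraries lay below the WT median, and the genotypes overlapped only at the low end of WT. Hspa1b (chr17:35093381-35096183, minus strand) had 4.15, 5.25 and 11.5 RPKM in WT and 2.01, 3.22 and 3.65 RPKM in R6/1, with no overlap. The log2 fold changes were -0.67 (SE 0.14, limma adjusted p 0.000395) for Hspa1a and -0.84 (SE 0.15, limma adjusted p 0.000105) for Hspa1b. Without WT replicate 1, which held the highest value of both, they were -0.57 and -0.73, and both genes were called in all 32 alternative fits. Depth was modest, with between 101 and 351 reads per library for Hspa1a and between 94 and 411 for Hspa1b.

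The 2 genes lie on the same strand with 9960 bases between them and are near-identical copies. Of the 31-base words in their transcripts, 64.5% of those of Hspa1a occur in Hspa1b and 67.4% of those of Hspa1b occur in Hspa1a. How reads that match both were assigned is not given in the sources used here, so the split between the copies, and their levels, are uncertain. A predicted gene on the other strand also overlaps 18.9% of the exon bases of Hspa1a, and whether strand was used in counting is not given. Their upstream stretches are nearly the same too, shown here because the genes moved together. The 150 bases before each start (RefSeq, build GRCm38.p6; chr17:34972157-34972306 and chr17:34959239-34959388, minus strand) differ at 1 position, T149G, counted from 1 at the first printed base of Hspa1a. Capitals mark a pair of inverted heat shock factor units, GAANNTTC.
Hspa1a: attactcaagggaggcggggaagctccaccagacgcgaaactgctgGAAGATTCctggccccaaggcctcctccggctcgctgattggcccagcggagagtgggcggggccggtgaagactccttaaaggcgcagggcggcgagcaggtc
Hspa1b: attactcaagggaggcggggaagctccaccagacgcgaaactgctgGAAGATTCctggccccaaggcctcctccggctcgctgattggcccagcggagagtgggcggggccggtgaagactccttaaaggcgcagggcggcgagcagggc
A pair in either arrangement was sought (GAANNTTC or TTCNNGAA, on either strand). It occurred in the 300-base start windows of 15 of the 59 members that had one, or 25.4%, and of 17.0% of 27025 genes. The other members, among them Hspa8, Hsp90aa1, Hsp90ab1, Hspa9 and Hspa13, had no window and were not searched for any element. A match is a description of the letters, and no match says only that they are not in the window.

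Across the WT libraries Hspa1b followed Hspa1a closely (Pearson's r 0.971 on log2 values, exact permutation p 0.000149, adjusted 0.00208; Spearman's rho 0.917, exact permutation p 0.00131; n = 9). The relation was r 0.868 without WT replicates 1 and 5, the libraries farthest from the median. Because the copies share much of their sequence, their counts may not be independent. Of 14 relations computed, 7 genes in each genotype, this was the only one to pass after adjustment. Hsph1 had r 0.832 in WT with an adjusted exact permutation p of 0.0509, and its r was 0.52 without WT replicate 1 and 0.63 without WT replicates 1 and 5. For Hspa8 the WT value of r was 0.792 (adjusted exact permutation p 0.0700), which fell to 0.33 without WT replicates 1 and 5, so that relation rested on those samples. In R6/1, Hspa1a and Hspa1b had r 0.661 (adjusted exact permutation p 0.0955), and Hspa8 had r 0.04. Fos, an activity-regulated gene, had r 0.02 with Hspa1a in WT and r -0.60 without WT replicates 1 and 5, so the near-zero value rested on those samples.

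**Figure D4:**
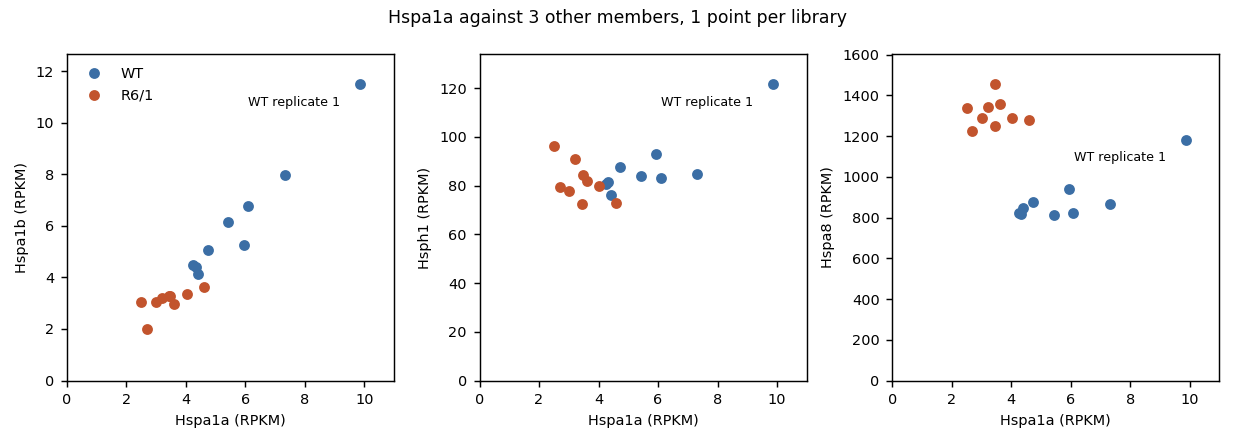
RPKM of Hspa1b, Hsph1 and Hspa8 (vertical axes) against Hspa1a (horizontal axis), 1 dot per library, WT blue and R6/1 red. Hspa1b lines up with Hspa1a. The WT relation is weaker for Hsph1 and Hspa8 without WT replicate 1, the blue dot at 9.87 RPKM of Hspa1a, and r is then 0.52 and 0.36.

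The co-chaperones Dnajb1 and Dnaja1, also heat-inducible, were higher instead. Dnajb1 (HSP40, the inducible J-domain partner of HSP70; chr8:86132074-86135801, plus strand) had a lowest, median and highest value of 12.5, 14.2 and 17.1 RPKM in WT and of 16.8, 19.1 and 20.9 RPKM in R6/1. All 9 R6/1 libraries lay above the WT median, and the overlap came from the highest WT libraries. Its log2 fold change was 0.39 (SE 0.058, limma adjusted p 1.44e-05). Dnaja1, another J-domain partner of cytosolic HSP70, ranged from 71.9 to 100.02 RPKM in WT (median 74.3) and from 84.2 to 97.6 RPKM in R6/1 (median 89.2). WT replicate 1 again held the top value, the next WT library having 76.9 RPKM, and the log2 fold change was 0.25 (SE 0.052, limma adjusted p 0.000633), or 0.29 without it. Of the 31-base words of Dnaja1, 30.8% occur elsewhere in the genome. Hsph1, the heat-inducible HSP110, ranged from 76.1 to 122 RPKM in WT and from 72.5 to 96.1 RPKM in R6/1. It did not pass (log2 fold change -0.10, 95% interval -0.24 to 0.05, limma adjusted p 0.282). The top value of 122 RPKM was that of WT replicate 1, and without this library the log2 fold change was -0.04 and did not pass either. A list of 11 members labelled heat-inducible had 6 higher and 2 lower, against 24.8% and 23.5% of all tested genes. The list also counts the constitutive Hspa8, which was among the 6 higher. The 2 lower ones were Hspa1a and Hspa1b.

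Among the other cytosolic HSP70 genes, 2 were lower. Hspa2, an HSP70 best known from testis, ranged from 25.8 through a median of 28.8 to 37.2 RPKM in WT and from 21.8 through 25.0 to 30.0 RPKM in R6/1. Hspa12b, a distant relative known from endothelium, ranged from 2.33 through 2.81 to 3.44 RPKM in WT and from 1.67 through 2.07 to 3.14 RPKM in R6/1. In both, 8 of 9 R6/1 libraries lay below the WT median and the ranges overlapped. The log2 fold changes were -0.23 (SE 0.068, limma adjusted p 0.00873) and -0.29 (SE 0.089, limma adjusted p 0.0106). None of the 6 endothelial markers was called, and their summed level was 53.4 to 90.2 RPKM in WT and 62.4 to 90.9 RPKM in R6/1. Hspa1l, Hspa12a and Hspa14 did not pass; 72% of the exon bases of Hspa1l are overlapped by a gene on the other strand.

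In the ER the HSP70 and HSP90 members did not change together. Hspa13 (STCH, a short HSP70 relative of microsomes; chr16:75755435-75767066, minus strand) ranged from 13.1 through a median of 14.6 to 18.1 RPKM in WT and from 19.1 through 20.4 to 24.3 RPKM in R6/1. Its genotypes did not overlap, and the log2 fold change was 0.47 (SE 0.056, limma adjusted p 9.57e-07). Hsp90b1 (GRP94; chr10:86152954-86168254, minus strand) was lower, with 102, 115 and 158 RPKM as lowest, median and highest value in WT and 96.5, 109 and 115 RPKM in R6/1. The ranges overlapped widely, and the log2 fold change was -0.18 (SE 0.067, limma adjusted p 0.0318). WT replicate 1 held the value of 158 RPKM, and without it the log2 fold change was -0.13, still called. This call was made in 24 of 32 alternative fits, and it was lost with RPKM rescaled by library totals, at -0.11 (limma adjusted p 0.166).

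BiP (Hspa5; chr2:34627490-34632051, plus strand) ranged from 74.2 through a median of 86.3 to 171 RPKM in WT and from 88.9 through 113 to 135 RPKM in R6/1. All 9 R6/1 libraries lay above the WT median, but WT replicate 1 held the highest value of all and the next WT library had 111 RPKM. The difference did not pass with every library (log2 fold change 0.22, 95% interval -0.03 to 0.47, limma adjusted p 0.154) and did pass without WT replicate 1 (log2 fold change 0.33, limma adjusted p 0.00609). Dnajc3 (p58IPK, a BiP partner) was higher by 0.16 on the log2 scale (SE 0.062, limma adjusted p 0.0341), with 12.6 to 19.0 RPKM in WT (median 14.3) and 14.8 to 18.2 RPKM in R6/1 (median 16.7). Its call was made in 23 of 32 alternative fits. Dnajb11 (ERdj3) had 12.7 to 18.6 RPKM in WT and 11.7 to 15.3 RPKM in R6/1, and Dnajb9 (ERdj4) had 20.9 to 28.1 and 22.6 to 29.7 RPKM. Neither passed (limma adjusted p 0.271 and 0.349). Further ER members, Dnajc14 and Dnajc18, were higher with log2 fold changes of 0.11 and 0.07. The call of Dnajc18 was made in only 15 of 32 alternative fits, and 36.5% of the exon bases of Dnajc14 are overlapped by Ormdl2 on the other strand.

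Several of these ER genes are textbook targets of the unfolded protein response, and 3 of them carry its element in the start window. The ER stress response element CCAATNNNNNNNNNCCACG, searched on both strands of 250 bases before to 50 bases after each RefSeq start, occurred in Hspa5, Hsp90b1 and Dnajc3, 3 of 59 members (5.08%), and in 0.137% of 27025 genes. The matches are in capitals, and Hsp90b1 holds the element once in each orientation (build GRCm38.p6; Hspa5 chr2:34771970-34772089, plus strand; Hsp90b1 chr10:86705524-86705664, minus strand; Dnajc3 chr14:118937812-118937892, plus strand).
Hspa5: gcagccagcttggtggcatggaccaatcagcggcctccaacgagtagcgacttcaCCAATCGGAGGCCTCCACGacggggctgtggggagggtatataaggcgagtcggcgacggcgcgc
Hsp90b1: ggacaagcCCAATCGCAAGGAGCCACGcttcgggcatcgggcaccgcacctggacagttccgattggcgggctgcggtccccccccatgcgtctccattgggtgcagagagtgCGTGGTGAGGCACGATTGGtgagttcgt
Dnajc3: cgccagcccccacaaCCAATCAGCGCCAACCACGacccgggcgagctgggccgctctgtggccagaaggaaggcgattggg
The 3 genes that share the element had log2 fold changes of 0.22 (not called), -0.18 and 0.16, in that order.

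Of the 8 mitochondrial members 3 passed, all higher in R6/1 (37.5%, against 24.8% of all tested genes). Hspa9 (mortalin, the matrix HSP70) had a lowest, median and highest value of 66.8, 68.6 and 76.9 RPKM in WT and of 75.4, 80.2 and 86.6 RPKM in R6/1. The ranges overlapped by a narrow margin, and the log2 fold change was 0.20 (SE 0.034, limma adjusted p 6.96e-05). Of the 31-base words of Hspa9, 22.8% occur elsewhere in the genome. Hspd1 (HSP60) had 64.6, 67.8 and 84.3 RPKM in WT and 72.6, 76.5 and 83.1 RPKM in R6/1, and rose by 0.15 on the log2 scale (SE 0.044, limma adjusted p 0.00941), or by 0.18 without WT replicate 1, which held the top WT value. Its lid Hspe1 (HSP10) had 43.6, 46.8 and 59.7 RPKM in WT and 43.1, 49.0 and 53.8 RPKM in R6/1. Hspe1 did not pass (log2 fold change 0.00, 95% interval -0.11 to 0.11, limma adjusted p 0.987), and 73.5% and 59.3% of the 31-base words of Hspd1 and Hspe1 occur elsewhere in the genome. Dnajc11, which organises cristae, was higher with no overlap, from 17.8 to 20.5 RPKM in WT and from 21.3 to 23.9 RPKM in R6/1 (log2 fold change 0.19, SE 0.033, limma adjusted p 8.93e-05). Dnaja3, the J-domain partner of Hspa9, missed the threshold at a limma adjusted p of 0.0502 and passed in 11 of 32 alternative fits. The import motor genes Dnajc15 and Dnajc19 did not pass, nor did Dnajc30.

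Hspd1 and Hspe1 are transcribed away from each other and their annotated 5' ends overlap by 112 bases, so both share one start region. That region holds the strict heat shock element of 3 units, GAANNTTCNNGAA on either strand, which occurred in 4 of 59 members (Dnajb6, Hspd1, Hspe1 and Hsph1, or 6.78%) and in 0.662% of 27025 genes. The element before Hspe1 (RefSeq, build GRCm38.p6, chr1:55088053-55088082, plus strand) is in capitals, with both overlapping matches joined.
Hspe1: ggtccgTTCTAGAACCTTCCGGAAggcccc
Of these 4 genes only Hspd1 was called. Members without a start window, among them Hspa8, Hsp90aa1, Hsp90ab1, Hspa9 and Hspa13, were not searched. The matches of Hspd1 and Hspe1 are the same bases read from opposite strands, counted for both genes.

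The HSP110 and small heat shock classes held few calls. Hspa4 ranged from 54.2 through a median of 55.8 to 71.2 RPKM in WT and from 57.6 through 61.7 to 66.3 RPKM in R6/1. It missed the threshold (log2 fold change 0.11, limma adjusted p 0.0513), passing without WT replicate 1 (log2 fold change 0.15, limma adjusted p 0.000824). Hspa4l, at 30.5 to 37.0 RPKM in WT and 31.19 to 38.5 RPKM in R6/1, had a limma adjusted p of 0.415. Hspb6 (HSP20) was the small heat shock gene that was called, with 2.26, 2.77 and 4.14 RPKM in WT and 3.35, 4.36 and 5.76 RPKM in R6/1. All 9 R6/1 libraries lay above the WT median, the log2 fold change was 0.55 (SE 0.10, limma adjusted p 0.000173), and between 38 and 122 reads stood behind each value. Hspb1 (HSP27) had 5.37 to 10.4 RPKM in WT and 4.51 to 11.4 RPKM in R6/1 (limma adjusted p 0.183), and 71.7% of its words occur elsewhere. Hspb8, the partner of Bag3 in selective autophagy, had 7.87 to 12.6 and 8.60 to 12.2 RPKM (limma adjusted p 0.245).

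Cytosolic J-domain partners of HSP70 moved in both directions. Dnajb4 was higher, with 18.4, 21.0 and 25.2 RPKM in WT and 24.3, 27.5 and 30.4 RPKM in R6/1 (log2 fold change 0.32, SE 0.056, limma adjusted p 0.000113). Dnajb5 (chr4:42962686-42972297, plus strand), a close relative of Dnajb4 and Dnajb1, was lower: its WT libraries had a lowest, median and highest value of 38.1, 43.1 and 46.4 RPKM and its R6/1 libraries of 28.7, 29.4 and 33.0 RPKM. No libraries overlapped, and the log2 fold change was -0.51 (SE 0.040), with the smallest limma adjusted p of all members, 3.87e-09. The near-level DNAJB sum thus held opposite changes of Dnajb5 and of Dnajb1 and Dnajb4. The summed level of 6 activity-regulated genes was 101 to 284 RPKM in WT and 67.9 to 174 RPKM in R6/1, with 5 of 6 called lower. Their part in the results for Dnajb5, Hspa1a and Hspa1b was not tested.

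Dnajb6 and Dnajb2, J-domain proteins studied for holding back polyglutamine aggregates, did not pass. Dnajb6 had 33.0, 36.8 and 41.3 RPKM in WT and 32.8, 34.8 and 38.8 RPKM in R6/1 (log2 fold change -0.07, 95% interval -0.15 to 0.01, limma adjusted p 0.143), and 82.2% of its words occur elsewhere in the genome. Dnajb2 had 22.5, 27.1 and 30.9 RPKM in WT and 23.5, 29.1 and 36.0 RPKM in R6/1 (log2 fold change 0.11, 95% interval -0.03 to 0.26, limma adjusted p 0.194). Dnaja2 was called higher by a narrow margin (log2 fold change 0.11, limma adjusted p 0.0436), a call made in 16 of 32 alternative fits. Dnaja4 did not pass, and 44.1% of its exon bases are overlapped by Wdr61 on the other strand.

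DNAJC proteins share the J domain and little else, and their calls spread over many roles. Dnajc12, a co-chaperone of the aromatic amino acid hydroxylases, was higher at 7.52, 9.70 and 10.7 RPKM in R6/1 against 5.81, 6.74 and 7.86 RPKM in WT (log2 fold change 0.48, SE 0.062, limma adjusted p 3.25e-06). Of the vesicle genes, Dnajc13 (RME-8, endosomal sorting) was higher with no overlap, from 8.65 to 10.1 RPKM in WT and from 10.3 to 12.6 RPKM in R6/1 (log2 fold change 0.26, limma adjusted p 6.01e-05). Dnajc6 (auxilin, which uncoats clathrin vesicles) was higher by 0.14 (limma adjusted p 0.00873). Dnajc5, the cysteine string protein of synaptic vesicles, had 79.3, 83.7 and 90.003 RPKM in WT and 78.3, 83.2 and 86.2 RPKM in R6/1 and did not pass (log2 fold change -0.04, 95% interval -0.10 to 0.02, limma adjusted p 0.298). Dnajc27, a Rab-like GTPase with a J domain, was higher by 0.17 (limma adjusted p 0.00195).

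Nuclear members divided. Dnajc8, a spliceosome-associated protein (chr4:132091465-132109657, plus strand), had 42.0, 47.0 and 48.6 RPKM in WT and 30.8, 35.8 and 37.6 RPKM in R6/1. Its genotypes did not overlap, and the log2 fold change was -0.38 (SE 0.040, limma adjusted p 2.00e-07). Dnajc17, also tied to the spliceosome, was higher, with 4.49, 5.01 and 7.34 RPKM in WT and 5.45, 6.71 and 7.72 RPKM in R6/1 (log2 fold change 0.26, SE 0.084, limma adjusted p 0.0137). Of their 31-base words, 28.4% and 33.7% occur elsewhere in the genome. Dnajc9, a histone co-chaperone, was higher by 0.16 (limma adjusted p 0.00947). Dnajc21, a ribosome biogenesis factor, had 8.60, 9.12 and 12.5 RPKM in WT and 7.65, 8.36 and 9.74 RPKM in R6/1 (log2 fold change -0.18, SE 0.063, limma adjusted p 0.0217). Its highest value again came from WT replicate 1, without which the log2 fold change was -0.13 (limma adjusted p 0.0296).

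Of the 3 genes caught by name, Hspb11, the intraflagellar transport protein IFT25 of cilia, was lower. Its values were 6.19, 8.67 and 11.2 RPKM in WT and 5.20, 5.81 and 6.96 RPKM in R6/1, all 9 R6/1 libraries lying below the WT median (log2 fold change -0.45, SE 0.093, limma adjusted p 0.000485). Between 44 and 87 reads stood behind each value. Of 5 ependymal markers, which belong to motile cilia, 1 was called lower, with a summed level of 5.27 to 25.8 RPKM in WT and 4.91 to 12.3 RPKM in R6/1. Hspbp1, an exchange factor that binds HSP70, was higher (log2 fold change 0.13, limma adjusted p 0.0190), and Hspbap1 did not pass. Below the minimum lay 8 members: Dnajb7, Dnajb8, Dnajb13, Dnajc22, Hspb2, Hspb3, Hspb7 and Hspb9. Dnajb8 had no read in any library, and the others had 26 reads or fewer.

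Genes that work with the members were grouped in 5 lists, whose counts stand against 24.8% higher and 23.5% lower among all tested genes (5.5% without overlap above WT and 6.38% below). Of 16 tested genes of TRiC, the ring that folds actin and tubulin, and of prefoldin, which feeds it, 11 were higher and none lower, with a median log2 fold change of 0.24 and 5 without overlap. Cct3 had the largest change there, from a mean of 56.0 ± 3.46 RPKM to one of 76.1 ± 2.99 RPKM in R6/1 (SD over 9 libraries, log2 fold change 0.44), followed by Cct4 with 0.37. Of 32 co-chaperones of HSP70 and HSP90, 14 were higher and 2 lower, with a median of 0.12. Bag2, an exchange factor of HSP70, was higher by 0.54, Ahsa2, an HSP90 activator, by 0.39, and the HSP90 partner Chordc1 was lower by 0.41 (log2 fold change -0.41).

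ER folding and unfolded protein response genes had 5 higher and 5 lower of 30, with a median of 0.02. Sdf2l1, a partner of BiP (log2 fold change -0.55), and Ddit3, the stress factor CHOP (-0.36), were lower. Herpud1, of ER-associated degradation, was higher (0.40). In mitochondria 5 of 13 folding and protease genes were higher, among them Clpx (0.20), and 1, the mitochondrial HSP90 Trap1, was lower (-0.26). Of 4 tested heat shock factors and their regulators, Hsf2 was higher (0.23) and Hsbp1 lower (-0.11), while Hsf1, at a mean of 11.9 ± 1.23 RPKM in WT against 11.2 ± 1.36 in R6/1 (SD over 9 libraries), did not pass (limma adjusted p 0.321). Hsf1 was named after its values were seen, as was Cryab. Cryab, a small heat shock gene outside the symbol rule, was lower (log2 fold change -0.46, limma adjusted p 0.0195).

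**Figure D5:**
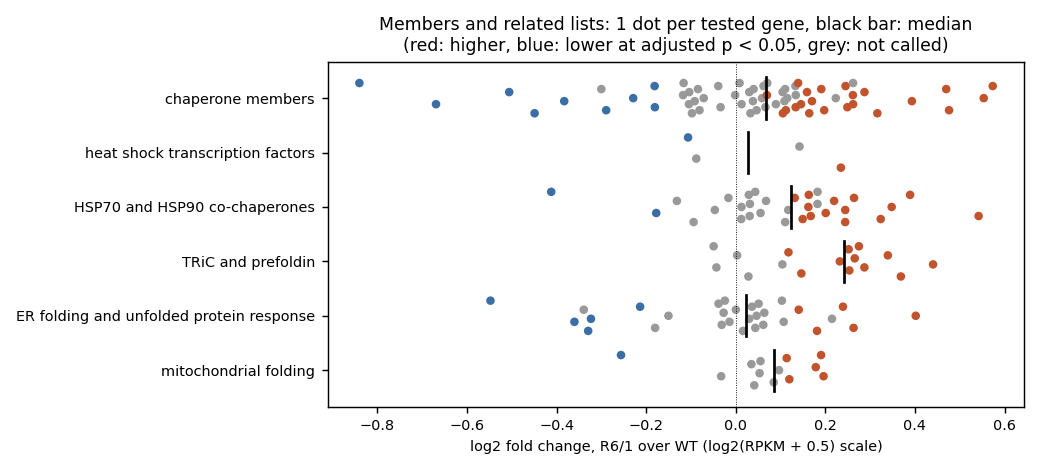
Log2 fold change (R6/1 over WT, on the log2(RPKM + 0.5) scale) of each tested member and of each tested gene in 5 lists of co-factors, 1 dot per gene with the list's median as a black bar. Red is higher and blue lower at an adjusted p under 0.05; the TRiC and prefoldin list has its median at 0.24 and no gene called lower.

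The study's lamin B1 ChIP-seq maps the long stretches of chromatin at the nuclear lamina, given as 1 list of domains per genotype and so with no replicate spread. Starts of 68 of the 72 members (94.4%) lay in no domain of either genotype, compared with 79.1% of 20512 placed genes and 86.6% of tested genes. Hspa13 and Dnajb9 started inside a domain in both genotypes, Dnajc10 and Dnajc24 in WT only, and no member in R6/1 only. Hspa13 lay in the same domain in both lists (chr16:65305001-89762000, mm9, 24.5 Mb), and its transcript was higher in R6/1. Around Dnajb9 the domain ran over 27.5 Mb in WT (chr12:42698001-70226000) and 8.92 Mb in R6/1 (chr12:42698001-51615000). Dnajc10 (WT domain chr2:77182001-90169000) and Dnajc24 (WT domain chr2:105783001-112036000) lay in no domain of the R6/1 list and were not called, with log2 fold changes of 0.03 and 0.13. Hspa1a, Hspa1b, Hspa8, Dnajb5 and Dnajc8 had no domain in either genotype, and the nearest WT domain was 612 kb from Hspa8 and 2113 kb from Hspa1a.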

How the data were processed

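RNA-seq (9 WT and 9 R6/1 libraries, stranded mRNA, per the labels' protocols) and 1 list of lamin B1 domains per genotype were used; ATAC-seq and ChIP reads were not analysed here. The authors deposited RPKM for 24508 symbols; TopHat, DESeq2 and mm9 are named in the submitters' processing notes without roles, and the counter and annotation are not given in the sources used here. The authors' deposited comparison table gives a mean normalised count (a signal), a log2 fold change with standard error, a test score, and p-values before and after adjustment, per the file headers. Each domain has a score as deposited by the authors. RPKM times mean normalised count over mean RPKM gave whole reads for 99.91% to 99.93% of values (within 0.05 of a read), so the deposited scaling is by size factors, and 3601 genes were higher and 3424 lower by limma-voom on those reads.

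The main test was limma 3.58.1 (trend, log2(RPKM + 0.5), two-sided, mean of at least 0.5 RPKM, Benjamini-Hochberg over 14446 genes, threshold 0.05), tested on simulated data first. Ranges are lowest, median and highest of 9 libraries. A gene was counted as not overlapping where the ranges of both genotypes were disjoint. Full statistics are given for 24 core chaperones and, among called members with a mean of at least 1 RPKM, the 8 largest fold changes in each direction. Other members are named by call, and genes of the related lists by the largest called changes. The members, classes and lists were chosen with earlier results of these data known. Domain membership used NCBIM37 (mm9) starts, and promoters RefSeq windows on GRCm38.p6, which held 59 of the 72 members. Correlations used exact permutation over pairings. Alternatives were other pseudocounts, filters, scalings, weights and covariates, the replicate number as a block, the authors' table, and leaving out each library. The covariates were log2 Ttr, a choroid plexus marker, and log2 Fos, in separate fits. Xist was at 0.0365 RPKM or less in every library, so the planned sex covariate was not run. The labels give both genotypes the numbers 1 to 9 without saying that a number is shared.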

Additional observations from a re-analysis of the deposited data

Results flagged for a closer look

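Within a genotype, the highest or lowest library stood far from the other 8 (by Dixon's ratio of gap to range) in 11 of the 68 groups formed by 34 named members and 2 genotypes, where chance gives about 3.4.

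WT replicate 1 accounted for 8 of these, each as the highest WT value. It had 1182.18 RPKM of Hspa8 (next WT library 938), 503.186 of Hsp90aa1 (next 398) and 171.138 of Hspa5 (next 111). The same library had 121.657 RPKM of Hsph1 (next 92.8), 100.024 of Dnaja1 (next 76.9) and 84.2717 of Hspd1 (next 72.9). It also had 71.2337 RPKM of Hspa4 (next 59.5) and 12.5257 of Dnajc21 (next 10.4). Hspa1a and Hspa1b had their highest WT values there too, at 9.87 and 11.5 RPKM, without a gap large enough to stand out by this measure. The summed activity-regulated markers of WT replicate 1 were 172 RPKM against a WT median of 177, and its general neuron sum of 2051 RPKM was the highest of the WT libraries. Its choroid plexus sum was 958 RPKM (WT median 123, highest 1075) and its CA3 sum of 200.5 RPKM was the highest of WT. Its endothelial sum of 53.4 RPKM and its mural sum of 47.5 RPKM were the lowest of WT. What sets this library apart was not tested.

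The other 3 lay in R6/1. Hspa1b was lowest in R6/1 replicate 9 at 2.01247 RPKM (next 2.99), Dnajb11 was lowest in replicate 7 at 11.6586 RPKM (next 13.5), and Hspa13 was highest in replicate 4 at 24.3421 RPKM (next 21.7).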

How the results depend on the processing

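Leaving out 1 library at a time gave between 19 and 25 members higher and between 8 and 11 lower, against 22 and 9 with all libraries. Over all genes these fits gave between 3425 and 3671 higher and between 3237 and 3504 lower. Of the 34 named members, 24 kept their call (higher, lower or not passing) in all 32 alternatives, and none of the 34 changed direction while called. Among those that never passed, Hspe1 and Dnajc5 had fold changes of either sign, from -0.02 to 0.07 and from -0.05 to 0.03. Single libraries decided some calls. Hsp90b1 was lost without WT replicate 3 or 7 or R6/1 replicate 6, 7 or 9 (limma adjusted p 0.0558 to 0.0613), and Dnajc3 without WT replicate 2, 3, 4, 8 or 9 or R6/1 replicate 3, 4, 5 or 8 (0.0507 to 0.0691). Hspa4 also passed without R6/1 replicate 6 (0.0335), as did Hspb1 (0.0374), and Dnajb6 passed as lower without WT replicate 5 (0.0492). Dividing by each library's total moved the median of all genes by 0.07 (log2) and moved the class sums, as R6/1 over WT, to 1.24 for HSP90, 1.45 for HSP70, 1.12 for the chaperonin, 1.18 for DNAJA, 1.04 for DNAJB and 1.08 for DNAJC. Over all genes this turned 3586 higher and 3394 lower into 5110 and 2526. Quantile normalization gave 26 members higher and 8 lower, and 4251 and 3045 over all genes. The authors' deposited table, with 71 members tested, gave 23 and 9, and 3686 and 3749 over its 18395 genes. The addition among the members was Hspb9, which lay below the minimum of the main test. The covariate log2 Ttr gave 20 members higher and 9 lower, and 3618 and 3412 over all genes. For log2 Fos the counts were 21 and 11, and 3297 and 3150 over all genes. Both fits lost Dnaja2 and Dnajc18. The Fos fit also lost Hsp90b1 (limma adjusted p 0.0731) and gained Hspb1 as higher and Dnajb3, Dnajc1 and Dnajc16 as lower. With the replicate number as a block the counts were 21 higher and 9 lower, and 3666 and 3467 over all genes. The block lost Dnaja2 and Dnajc18 and gained Dnaja3. Same-numbered libraries correlated between -0.05 and 0.24, above 0.1 in 3 of 9 numbers, so the numbers were not taken as pairs. Counting any overlap of the gene body put 1 member, Dnajc21, in a domain of R6/1 only, since its start lies 3.3 kb outside. Few reads for Hspb6, Hspb11, Hspa1a and Hspa1b, and an unknown split of reads between near-identical copies, limit the precision of those values, and 1 domain list per genotype gives no spread.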
